A study of Mus musculus with 4 samples.

Results

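The genes of the respiratory chain and of the ATP synthase were followed across 4 arrays of 3T3-L1 cells, a mouse line of preadipocytes that turns into adipocytes under hormonal induction. The genes were chosen by name: every gene whose name in the array files started with Nduf, Uqcr, Cox4 to Cox8 or Atp5, plus Sdha, Sdhb, Sdhc, Sdhd and Cyc1. This took 84 of the 19750 genes with a name on the array, measured by 117 of its 41174 probes. Of the 84 genes, 36 belong to complex I, 4 to complex II, 8 to complex III, 16 to complex IV and 15 to the ATP synthase, and 5 carry such a name without being a subunit. The cells were induced with 10 μg/mL insulin, 1 μM dexamethasone and 0.5 μM IBMX, and RNA was taken on day 2. They had been treated with 0.1% DMSO alone, or with 100 μg/mL bilberry extracts, 100 nM delphinidin or 100 nM cyanidin in the same 0.1% DMSO. Each condition had 1 array, all of the same slide and scan. Without replicates no p-value or error of the mean can be given for any difference below, and how precisely a value is known is limited by the 4 arrays.

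The respiratory chain passes electrons from NADH and succinate through complexes I and II to coenzyme Q, then through complex III and cytochrome c to complex IV, which reduces oxygen. The proton gradient that complexes I, III and IV build drives the ATP synthase. Most subunits are encoded in the nucleus, where NRF1, the ETS factor GABP, YY1 and the estrogen-related receptors are known regulators, and a few are encoded in mitochondrial DNA. White preadipocytes are known to make more mitochondria as they differentiate into adipocytes.

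Values are given as the scaled signal, the processed intensity of a spot relative to the 75th percentile of that array, and as log2 ratios of that signal between arrays. That percentile was 861 for DMSO, 576 for bilberry, 1009 for delphinidin and 1016 for cyanidin. Spike-in control RNAs, read before that scaling, had a log2 ratio to DMSO of 0.96 for bilberry, -0.03 for delphinidin and 0.01 for cyanidin. The software gave the spots an error of 10%, which is 0.19 on a log2 ratio, and replicate spots of a probe differed by an SD of 0.03 to 0.04 (log2). Each gene was read from its brightest probe. A value on all 4 arrays was present for 75 of the 84 genes, and 72 of them were well above background on all 4 by the software's own test. The other 9 genes had their probe marked on 1 array, in each case because the local background beside the spot was an outlier, which the processed signal does not use. With those spots kept, the log2 ratios of these 9 genes to DMSO lay between 0.36 for Sdhc and 0.61 for Cox8a with bilberry, between -0.03 for Cox8a and 0.22 for Cox5a with delphinidin, and between -0.01 for Ndufb9 and 0.27 for Cox5a with cyanidin. The counts and medians below are over the 72 genes, beside the 11972 genes of the array that met the same filter.

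In cells treated with bilberry extracts, most respiratory genes were higher than with DMSO by less than 2-fold when each array was set to its 75th percentile. Set to the spike-in RNAs instead, the direction turned, with a median of -1.37 for all genes and -1.14 for the respiratory genes, so each value with bilberry is read against all genes of the same array. The median log2 ratio of the 72 genes was 0.40 (middle 50% of the genes from 0.19 to 0.59), beside 0.17 for all genes, and 56 of the 72 genes (77.8%) lay above that all-gene median. A single gene, Ndufa11, was past 2-fold higher, where 3.94% of all genes were, and no respiratory gene was past 2-fold lower, where 6.42% of all genes were. Past 1.5-fold, 19 genes were higher (18.5% of all genes) and 1 was lower (13.5% of all genes). Counted anew over the respiratory genes, in either direction, 4 were past 1.5-fold under quantile normalization, against 20. Under a normexp background model fitted to all spots 10 were, not all of them among the 20. The difference between the medians was 0.24. It depended on the processing: quantile normalization left 0.084, dropping the filter on dim probes 0.062, and the same normexp model -0.20, as given in the closing section. Without the filter on dim probes the respiratory median stayed at 0.40, and the median of all genes, then 19213, was 0.34.

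**Figure D1:**
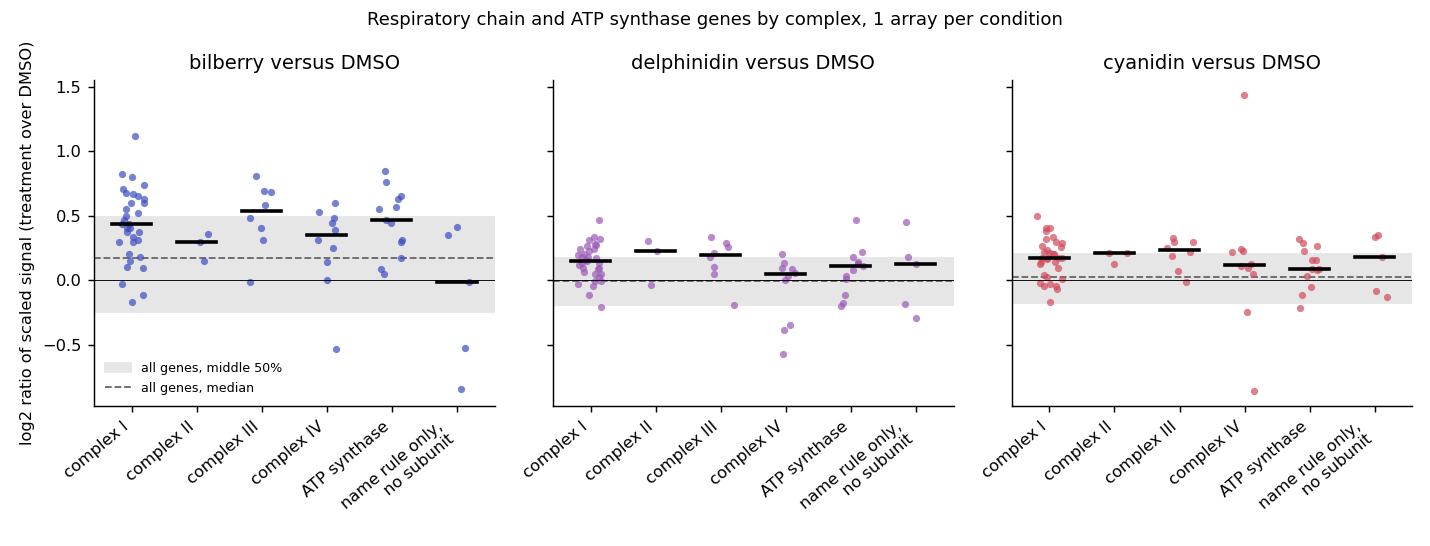
Log2 ratio of the scaled signal over DMSO (vertical axis) of each of the 72 respiratory genes by complex, for bilberry, delphinidin and cyanidin, 1 array each. Black bars are the medians of a complex, the dashed line is the median of all 11972 genes and the grey band holds the middle 50% of all genes; the medians of complexes I to IV and of the ATP synthase lie above the dashed line in each panel, by less than 0.4.

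With delphinidin and with cyanidin the differences were smaller. The median log2 ratio to DMSO was 0.12 with delphinidin (all genes -0.01) and 0.17 with cyanidin (all genes 0.02). Of the 72 genes, 58 lay above the all-gene median with delphinidin (80.6%) and 57 with cyanidin (79.2%). These 2 comparisons and that of bilberry share the DMSO array. Among the treated arrays, which needs no DMSO value, 55 of the 72 genes (76.4%) were highest with bilberry, beside 57.7% of all genes. That count rests on the percentile scaling of each array and was not repeated with spike-in scaling. With spike-in scaling the 72 genes had median log2 ratios to DMSO of -1.14 for bilberry, 0.38 for delphinidin and 0.41 for cyanidin. With delphinidin no respiratory gene was past 2-fold in either direction, where 1.23% of all genes were higher and 1.45% lower, and none was past 1.5-fold, where 4.42% were higher and 5.3% lower. With cyanidin, Cox6a2 was past 2-fold higher (0.626% of all genes) and none was past 2-fold lower (1.13%). At 1.5-fold these were 1 gene higher (3.09% of all genes) and 1 lower (4.68%), which was Cox7a1.

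**Figure D2:**
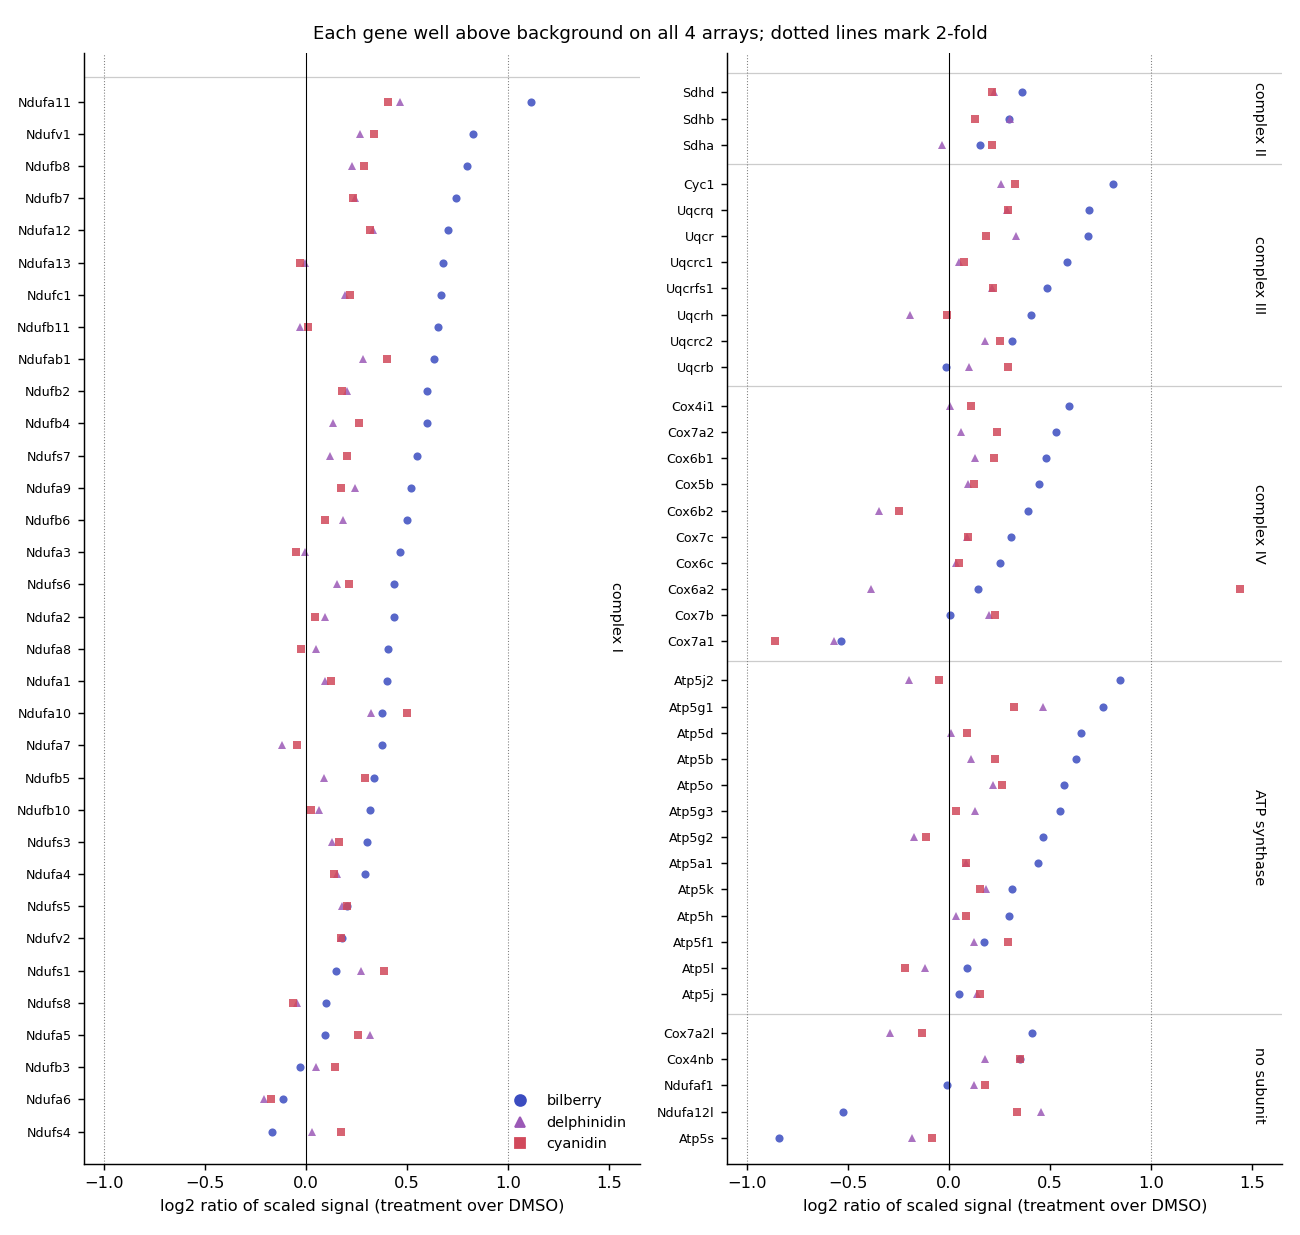
Log2 ratio of the scaled signal over DMSO (horizontal axis) for each of the 72 genes, with a circle for bilberry, a triangle for delphinidin and a square for cyanidin, sorted within a complex by the bilberry value. Ndufa11 at 1.11 with bilberry and Cox6a2 at 1.44 with cyanidin are the points beyond the dotted 2-fold lines. Ratios are of signals set to the 75th percentile; set to the spike-in RNAs, Ndufa11 reads -0.43 with bilberry.

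Promoters of the genes were compared in RefSeq windows of GRCm38.p6 that run from 250 bases before to 50 bases after each start site. By current symbol 68 of the 84 genes had a window. Those without one included Atp5a1, Cox4i1, Cox4i2, Cox4nb, Cox6a2, Cox6c, Cox8c, Cyc1, Ndufa2, Ndufb9, Ndufs1, Sdhc, Uqcrb, Uqcrc2 and Uqcrq. Letters of 6 motifs were searched on both strands, and a gene counted once if any of its windows held them. GCGCANGCG, bound by NRF1, was in 20 of the 68 genes (29.4%) and in 7.03% of all 27025 genes with a window. CCGGAAG, bound by ETS factors such as GABP, was in 17 genes (25%, all genes 9.93%) and AAGATGGCG, bound by YY1, in 7 (10.3%, all genes 1.64%). The CRE letters TGACGTCA were in 4 genes (5.88%, all genes 2.03%), TCAAGGTCA for the estrogen-related receptors in 2 (2.94%, all genes 0.466%), and TATAAA in 6 (8.82%, all genes 15.7%). The genes had 1.07 windows on average and all genes 1.22. With bilberry the median log2 ratio was 0.38 over 18 genes with the NRF1 letters and 0.41 over 43 without, with delphinidin 0.13 and 0.12, and with cyanidin 0.17 and 0.17. For the ETS letters these medians were 0.30 over 14 genes and 0.44 over 47 with bilberry, 0.13 and 0.11 with delphinidin, and 0.15 and 0.17 with cyanidin. The 7 genes with YY1 letters had 0.52, 0.14 and 0.17 for bilberry, delphinidin and cyanidin, the 4 with CRE letters 0.54, 0.27 and 0.31, and the 5 with TATAAA 0.46, -0.01 and -0.05.

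The promoters of 4 genes are shown, for the gene highest with bilberry, a gene of complex III past 1.5-fold, and 2 isoform genes of complex IV that differed, each as the 250 bases before the start site, 5′ to 3′ on the strand of the gene, with matched motif letters in capitals. Ndufa11 lies on the plus strand at chr17:56717512-56717761 and holds the CRE letters, which begin 158 bases before the start, and overlapping NRF1 letters on both strands, which begin 60 and 59 bases before it. Uqcr lies on the minus strand at chr10:80406822-80407071 and holds the ETS letters, 66 bases before the start, while NRF1 letters on the reverse strand run across the start itself and are not in capitals. Cox6a1, the partner of Cox6a2, lies on the minus strand at chr5:115348959-115349208 and holds NRF1 letters on both strands and ETS letters near the start. Cox7a1, lower in each treatment, lies on the plus strand at chr7:30183921-30184170 and holds none of the 6 motifs in this stretch, which says only that these letters are not there.
Ndufa11: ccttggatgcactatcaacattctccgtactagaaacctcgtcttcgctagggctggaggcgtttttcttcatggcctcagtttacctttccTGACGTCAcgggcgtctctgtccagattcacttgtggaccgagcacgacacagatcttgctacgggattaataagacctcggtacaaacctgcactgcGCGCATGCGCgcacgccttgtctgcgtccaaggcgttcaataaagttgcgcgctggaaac
Uqcr: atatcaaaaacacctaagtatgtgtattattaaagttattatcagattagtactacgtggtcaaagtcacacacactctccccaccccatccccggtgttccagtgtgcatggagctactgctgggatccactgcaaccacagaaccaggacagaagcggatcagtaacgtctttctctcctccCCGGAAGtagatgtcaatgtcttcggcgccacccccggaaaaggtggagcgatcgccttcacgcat
Cox6a1: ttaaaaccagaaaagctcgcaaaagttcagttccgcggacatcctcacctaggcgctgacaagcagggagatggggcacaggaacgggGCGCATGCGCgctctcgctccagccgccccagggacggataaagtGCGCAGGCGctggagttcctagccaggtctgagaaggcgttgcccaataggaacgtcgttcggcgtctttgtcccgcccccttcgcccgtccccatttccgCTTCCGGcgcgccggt
Cox7a1: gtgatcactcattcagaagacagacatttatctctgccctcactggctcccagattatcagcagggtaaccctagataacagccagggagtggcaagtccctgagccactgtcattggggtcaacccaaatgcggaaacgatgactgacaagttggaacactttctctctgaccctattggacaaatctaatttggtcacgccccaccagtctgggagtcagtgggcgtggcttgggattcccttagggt

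Complex I takes electrons from NADH, and 33 of its 36 genes were used. Their median log2 ratio was 0.44 for bilberry, 0.15 for delphinidin and 0.17 for cyanidin. Ndufa11, a supernumerary subunit in the membrane arm, had a scaled signal of 2.87 under DMSO, 6.21 under bilberry, 3.96 under delphinidin and 3.79 under cyanidin. The bilberry array was the highest and the DMSO array the lowest, with 2.16-fold, 1.38-fold and 1.32-fold over DMSO. A further probe of Ndufa11 read log2 ratios of 1.14, 0.49 and 0.43, beside 1.11, 0.46 and 0.40, but it overlaps the first by 50 bases.

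The electron-transferring core of complex I lay below its supernumerary subunits with bilberry, at a median log2 ratio of 0.24 over 6 core genes and 0.44 over 27 supernumerary genes. The medians were 0.15 and 0.15 with delphinidin and 0.19 and 0.17 with cyanidin. Within the core, Ndufv1, which holds the flavin that oxidizes NADH, read 35.6 under DMSO, 63.1 under bilberry, 42.8 under delphinidin and 44.98 under cyanidin, a log2 ratio of 0.83 with bilberry. Ndufs8, an iron-sulfur subunit, was at the other end of the core with log2 ratios of 0.10, -0.05 and -0.07 in the same order of treatments. Ndufs1, the largest iron-sulfur subunit, was higher with cyanidin (0.38) and delphinidin (0.27) than with bilberry (0.15), whereas Ndufv1 was highest with bilberry.

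Among the supernumerary subunits, those past 1.5-fold with bilberry besides Ndufa11 were Ndufb8 (log2 ratio 0.80), Ndufb7 (0.74), Ndufa12 (0.70), Ndufa13 (0.68), Ndufc1 (0.67), Ndufb11 (0.65), Ndufab1 (0.63), Ndufb2 (0.60) and Ndufb4 (0.60). Ndufa13 and Ndufb11 read -0.01 and -0.03 with delphinidin and -0.03 and 0.01 with cyanidin, so that for these a difference from DMSO beyond 0.19 was seen on the bilberry array alone. Ndufab1, the mitochondrial acyl carrier protein, read 0.28 with delphinidin and 0.40 with cyanidin. In complex I 3 genes were lower with bilberry than with DMSO, each by less than 0.19: Ndufs4 (-0.17), Ndufa6 (-0.12) and Ndufb3 (-0.03). The other 30 were higher, where 62.0% of all genes were, and 27 of the 33 lay above the all-gene median. Ndufa6 was also the lowest of complex I with delphinidin (-0.21) and cyanidin (-0.17), and Ndufa10 was the highest with cyanidin (0.50). For Ndufb8 and Ndufb2 the gene's probes opposed each other with bilberry: the dimmer probe of Ndufb8 read -0.79 and that of Ndufb2 -0.43. Over the 23 genes with several probes that could be compared, the range between probes had a median of 0.14 with bilberry, and these 2 genes were those past 1.

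Complex II feeds electrons from succinate into the chain, and none of its 4 genes was past 1.5-fold in any treatment. Sdha, the flavin subunit, read a log2 ratio of 0.15 for bilberry, -0.04 for delphinidin and 0.21 for cyanidin. Its other probe was nearly as bright and read -0.13, 0.10 and 0.20, so the sign was not settled with bilberry or delphinidin. Sdhb, the iron-sulfur subunit, read 0.30, 0.30 and 0.13, and Sdhd, a membrane anchor, 0.36, 0.22 and 0.21. Sdhc, the other anchor, was marked on the bilberry array and read 0.05 with delphinidin and 0.06 with cyanidin.

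Complex III carries electrons from coenzyme Q to cytochrome c, and had the highest median of the complexes with bilberry, 0.53 over 8 genes, with 0.20 for delphinidin and 0.23 for cyanidin. Cyc1, the cytochrome c1 subunit, read 40.2 under DMSO, 70.5 under bilberry, 48.0 under delphinidin and 50.4 under cyanidin. All 3 treated arrays were above the DMSO array, with log2 ratios of 0.81, 0.26 and 0.33. The small subunits Uqcrq and Uqcr (now Uqcr11) were past 1.5-fold with bilberry at 0.69 each. Uqcrc1, a core subunit, read 0.58 with bilberry but 0.05 and 0.07 with the anthocyanidins. Uqcrb, a small subunit at the quinone site, was the lowest with bilberry at -0.01, and Uqcrh, the hinge subunit, was the lowest with delphinidin (-0.19) and cyanidin (-0.01).

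Complex IV reduces oxygen, and the 10 of its 16 genes that were used had a median log2 ratio of 0.35 for bilberry, 0.04 for delphinidin and 0.12 for cyanidin. Several of its subunits come as a widely expressed form and a form restricted to certain tissues. The 7 widely expressed genes ran from 0.00 (Cox7b) to 0.59 (Cox4i1) with bilberry, with a median of 0.44, and their medians were 0.09 with delphinidin and 0.12 with cyanidin. All 7 were at or above the DMSO array in each treatment on this scale. Of all genes 62.0%, 48.7% and 52.9% were above it with bilberry, delphinidin and cyanidin. With bilberry 6 of the 7 lay above the all-gene median. Widely expressed as well were the 3 marked genes of complex IV. With marked spots kept, these read -0.03 (Cox8a), 0.02 (Cox6a1) and 0.22 (Cox5a) with delphinidin. Cox4i1, the subunit at which ATP is known to act on the enzyme, read 103 under DMSO, 156 under bilberry, 103 under delphinidin and 111 under cyanidin, so the bilberry array stood above the other 3.

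Of the tissue-restricted isoforms, Cox7a1 was lower in each treatment and Cox6a2 stood out with cyanidin. Cox7a1, the form of heart, skeletal muscle and brown fat, read 0.646 under DMSO, 0.445 under bilberry, 0.435 under delphinidin and 0.356 under cyanidin, and was lower than DMSO on each treated array (log2 ratios -0.54, -0.57 and -0.86). With bilberry it read -0.03 under the normexp model fitted to all spots, and its single probe lies in the block of array rows described below. Its partner Cox7a2 read 0.53, 0.06 and 0.24. Cox6a2, the heart and muscle form, read 0.0427 under DMSO, 0.0472 under bilberry, 0.0326 under delphinidin and 0.116 under cyanidin. The cyanidin array stood apart at 2.71-fold over DMSO, while its partner Cox6a1, marked on the cyanidin array, read log2 ratios of 0.51 with bilberry and 0.02 with delphinidin. Cox6a2 had a single dim probe, and its ratio with cyanidin shrank from 1.44 to 0.69 under either fit of the normexp background model. Cox6b2, known from testis, read 0.39, -0.35 and -0.25 and its partner Cox6b1 0.48, 0.13 and 0.22. Cox4i2, Cox8b and Cox8c were not well above background on any of the 4 arrays, so no ratio is given. No probe was named Ndufa4l2 or Cox7b2 in the files. Ndufa4, counted here with complex I by its name and now placed in complex IV, read 0.29, 0.15 and 0.14.

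**Figure D3:**
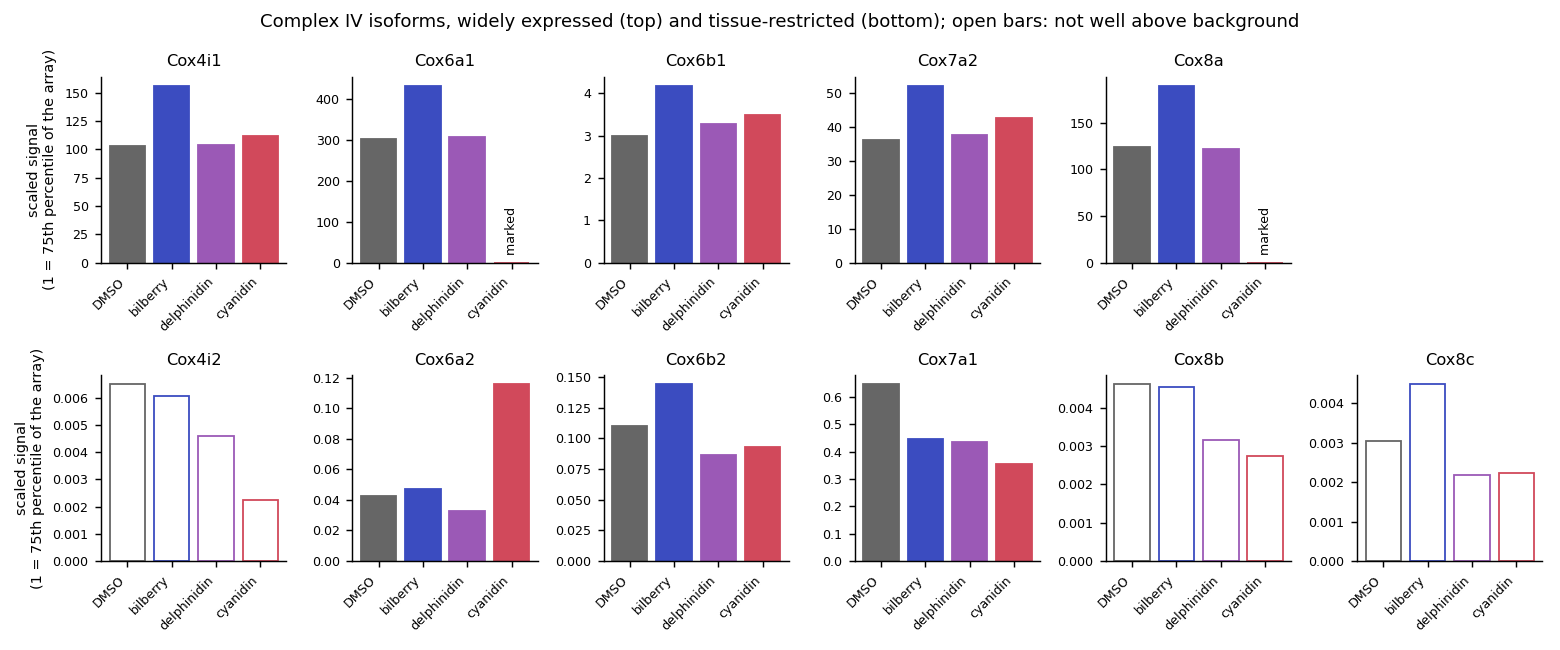
Scaled signal (vertical axes, each starting at 0) of the complex IV isoforms on the DMSO, bilberry, delphinidin and cyanidin arrays, 1 bar per array. Bars compare arrays within a panel, not genes with each other; the Cox7a1 bar is highest with DMSO (0.646), the Cox6a2 bar is highest with cyanidin (0.116), and Cox4i2, Cox8b and Cox8c have open bars since they were not well above background.

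Since Cox6a2, Cox7a1 and Cox8b are known from muscle and brown fat, the markers of those cells were read on the same arrays. Of 6 muscle markers, 1 was well above background on all 4 arrays, Des, with log2 ratios of 0.09, -0.43 and 0.02, and 4 were so on none, among them Myog and Ckm. The summed scaled signal of the 6 was between 0.0649 and 0.0943. Of 7 brown adipocyte markers, 2 passed the background test throughout, Cidea on 3 arrays and 4 on no array. Among these 4 was Ucp1, the uncoupling protein that defines brown fat. The 2 that passed throughout read 0.0895 (Elovl3) and 0.134 (Dio2) under DMSO. Elovl3 had log2 ratios of -1.16, -0.54 and -0.27, and Dio2 -0.33, 0.45 and -0.12. With bilberry Elovl3 was thus past 2-fold lower, where 6.42% of all genes were. The summed signal of the 7 was 0.257 under DMSO, 0.178 under bilberry, 0.276 under delphinidin and 0.236 under cyanidin.

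The ATP synthase makes ATP from the proton gradient, and the 13 of its 15 genes that were used had median log2 ratios of 0.46 for bilberry, 0.11 for delphinidin and 0.09 for cyanidin. On this scale all 13 were above the DMSO array with bilberry by the probe used, from 0.05 (Atp5j) to 0.84 (Atp5j2). Of all genes 62.0% were. Above the all-gene median of 0.17 lay 11 of the 13. Atp5f1 read 0.17 by its brightest probe with bilberry, but dimmer probes of it read -0.12 and -0.07. The F1 head, where ATP is formed, had log2 ratios with bilberry of 0.44 for Atp5a1, 0.63 for Atp5b and 0.65 for Atp5d. By their brightest probes the same 3 genes lay between 0.01 and 0.11 with delphinidin and between 0.08 and 0.23 with cyanidin. Dimmer probes of Atp5b read higher, 0.81 and 0.75 with bilberry, 0.30 and 0.31 with delphinidin and 0.52 and 0.59 with cyanidin. Atp5b, the catalytic beta subunit, read 133 under DMSO, 205 under bilberry, 143 under delphinidin and 155 under cyanidin.

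The c ring, the rotor that protons turn, is encoded by a gene family whose members make the same mature protein, and these 3 genes differed. Atp5g1 read 24.4 under DMSO, 41.4 under bilberry, 33.6 under delphinidin and 30.4 under cyanidin, with log2 ratios of 0.76, 0.46 and 0.32, and was the highest of the ATP synthase with both anthocyanidins. Atp5g2 read 0.46, -0.18 and -0.12, and Atp5g3 0.55, 0.13 and 0.04. In the stalk and membrane part, Atp5o, the subunit that confers oligomycin sensitivity, read 0.57, 0.22 and 0.26, and Atp5l, the g subunit, 0.09, -0.12 and -0.22, the lowest of the ATP synthase with cyanidin. The 0.84 of Atp5j2, the f subunit, and its -0.20 with delphinidin came from a dim probe at 0.113 with DMSO. Its bright probe was marked on the DMSO array and read 79.5 for bilberry, 55.7 for delphinidin and 58.6 for cyanidin.

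The 5 genes that the names caught but that are no subunits had medians of -0.01 for bilberry, 0.12 for delphinidin and 0.18 for cyanidin. Atp5s (now Dmac2l) read 2.26 under DMSO, 1.26 under bilberry, 1.98 under delphinidin and 2.13 under cyanidin, and was the one gene past 1.5-fold lower with bilberry, at a log2 ratio of -0.84. Ndufa12l (now Ndufaf2), an assembly factor of complex I, was lower with bilberry (-0.53) and higher with delphinidin (0.45) and cyanidin (0.33). Ndufaf1, another assembly factor, read -0.01, 0.12 and 0.18. Cox4nb (now Emc8, of the endoplasmic reticulum) read 0.35, 0.18 and 0.35. Cox7a2l, which joins complexes into supercomplexes, read 0.41, -0.29 and -0.13. Without these 5 genes the median of the remaining 67 was 0.44 for bilberry, 0.12 for delphinidin and 0.17 for cyanidin.

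Delphinidin and cyanidin are anthocyanidins that differ by 1 hydroxyl group on the B ring and were given at the same 100 nM. On 1 array each, the respiratory genes were close together. The median log2 ratio of delphinidin over cyanidin was -0.03, as for all genes (-0.03). Within 0.2 of 0 lay 68 of the 72 genes (94.4%), beside 71.1% of all genes. The respiratory genes had brighter probes, with a median scaled signal of 34.5 beside 1.67 for all genes. The share was not computed for equally bright genes, so closeness and brightness cannot be told apart here. No respiratory gene was past 2-fold or past 1.5-fold higher with delphinidin, where 0.384% and 1.42% of all genes were, and Cox6a2 was lower by both (log2 ratio -1.83), where 0.342% and 1.49% of all genes were. The next in size were Cox7a1 (0.29), Sdha (-0.25, with -0.10 from its other probe) and Ndufb5 (-0.20). With 1 array each no interval of these differences can be given. The dose of the bilberry extracts is a mass of a mixture, so it was not matched to these.

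**Figure D4:**
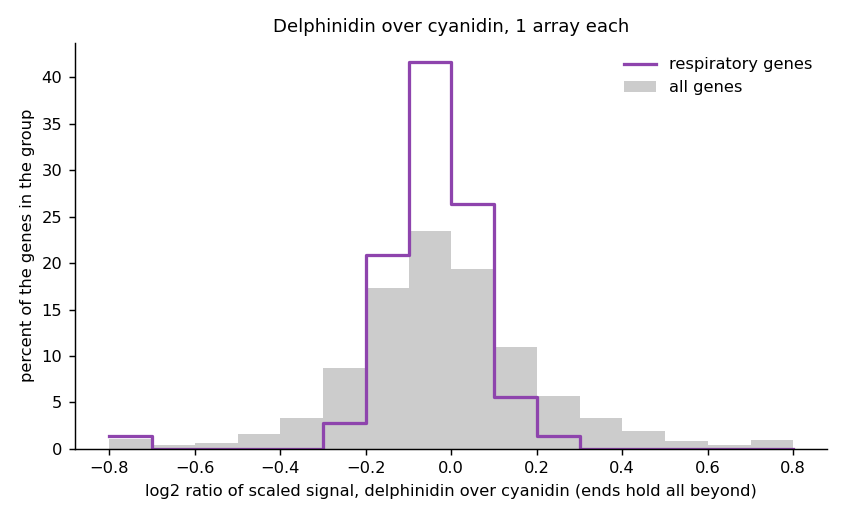
Percent of genes (vertical axis) in bins of the log2 ratio of delphinidin over cyanidin (horizontal axis), for the 72 respiratory genes (line) and all 11972 genes (grey bars), from 1 array each. The end bins hold all genes beyond them, and the respiratory gene in the lowest bin is Cox6a2. Within 0.2 of 0 lie 94.4% of the respiratory genes, whose probes were brighter than those of all genes.

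Genes that serve the chain without bearing its names were read as whole lists. In the list of electron carriers and exchange proteins, 9 of 11 genes were well above background, with medians of 0.46, 0.13 and 0.15 for bilberry, delphinidin and cyanidin. Past 1.5-fold with bilberry were 3 of them, Slc25a5, an ADP/ATP exchanger (0.79), Vdac3, an outer membrane channel (0.64), and Cycs, cytochrome c (0.63), and none was lower, where 18.5% of all genes were higher and 13.5% lower. Cycs was also past 1.5-fold higher with delphinidin (0.70) and cyanidin (0.74), where 4.42% and 3.09% of all genes were. It read 46.4 under DMSO, 71.9 under bilberry, 75.2 under delphinidin and 77.4 under cyanidin. Coenzyme Q synthesis had 7 of 9 genes well above background, with medians of 0.52, 0.26 and 0.36, and 2 were past 1.5-fold higher with bilberry, Coq4 (0.73) and Coq7 (0.63), beside the same 18.5% of all genes. Pdss1, which makes the side chain of coenzyme Q, was past 1.5-fold higher with delphinidin (0.90) and cyanidin (0.89), beside the same 4.42% and 3.09%.

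The 26 assembly genes of other names had medians of 0.28, 0.08 and 0.12. With bilberry 3 of the 26 were past 1.5-fold higher, not above the 18.5% of all genes, among them Cox17, a copper chaperone (0.73), and Lrpprc, which stabilizes mitochondrial messenger RNAs (0.69), and none lower. Of the mitochondrial ribosome, 73 genes had medians of 0.30, 0.16 and 0.23, with values for bilberry from -0.40 (Mrpl30) to 0.84 (Mrpl37). Of these 73, 15 were past 1.5-fold higher with bilberry, a share close to the 18.5% of all genes, and none was lower (13.5% of all genes). The 13 regulators of mitochondrial biogenesis had medians of 0.16, 0.04 and 0.10. Tfam, the transcription factor of mitochondrial DNA, read 34.1 under DMSO, 88.4 under bilberry, 33.3 under delphinidin and 34.7 under cyanidin, a log2 ratio of 1.38 on the bilberry array alone. Ppargc1b, a coactivator of respiratory genes, was higher in each treatment (0.84, 0.65 and 0.76), Ppargc1a read -0.14, 0.15 and -0.26, and Nrf1 0.06, 0.03 and -0.01. Gabpa, the ETS subunit of GABP, was the lowest of the list with bilberry at -0.56 and read -0.10 and -0.19 with delphinidin and cyanidin. Of the subunits encoded in mitochondrial DNA, 3 had probes: CYTB read 0.32, 0.05 and 0.29, ND4L -0.04, -0.16 and -0.02, and COX2 0.51, -0.21 and -0.12. The files place the COX2 probe on chromosome 1, so signal from a nuclear copy and from the mitochondrial gene cannot be told apart.

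The respiratory genes had bright probes and short genes. The median of their mean scaled signal was 34.5 beside 1.67 for all genes, and 57 of the 72 were in the brightest quintile of all genes. Within that quintile the other genes had medians of 0.31 for bilberry, 0.04 for delphinidin and 0.06 for cyanidin, beside 0.44, 0.13 and 0.17 for the 57. The gene span in RefSeq had a median of 7336.5 bases beside 21899.5 for all genes. From the shortest to the longest quintile of span, the median of all genes went from 0.32 to 0.03 with bilberry, from -0.05 to -0.04 with delphinidin and from -0.01 to -0.03 with cyanidin. Among the 1250 genes in the brightest quintile and the 2 shortest quintiles, 48 were respiratory genes, with medians of 0.45, 0.12 and 0.15, and the rest had 0.39, 0.05 and 0.06. Of the 72 genes, 27 (37.5%) lay in a block of array rows that had stood apart in earlier results of these data (43.9% of all genes), with medians of 0.48, 0.15 and 0.22 inside it and 0.39, 0.09 and 0.13 outside. The part of brightness, gene span and array position in the result was not tested.

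**Figure D5:**
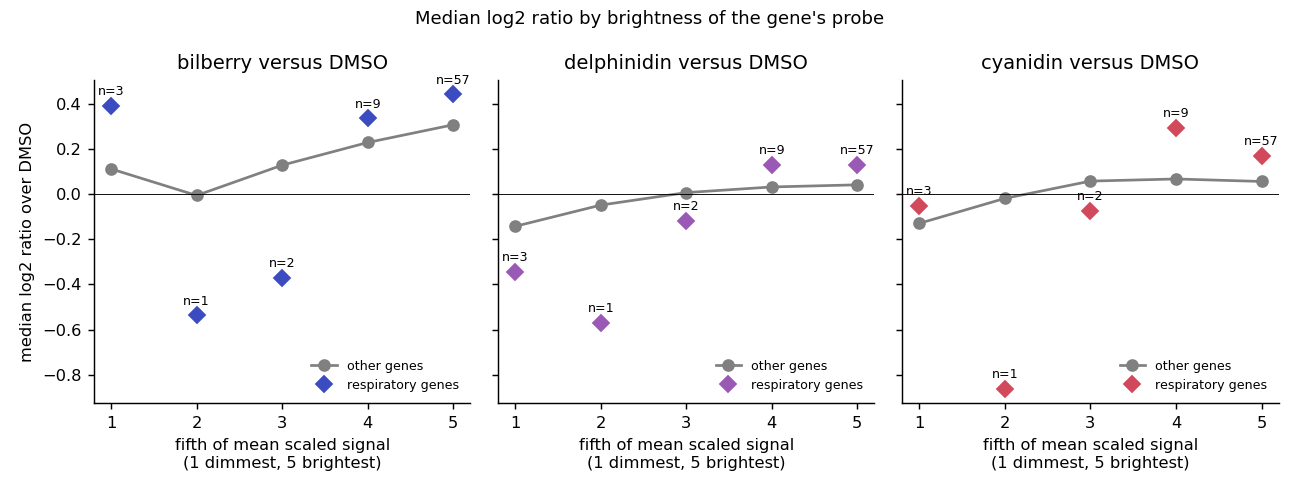
Median log2 ratio over DMSO (vertical axis) by quintile of the mean scaled signal of a gene's probe (horizontal axis, 1 dimmest to 5 brightest), for respiratory genes (diamonds, with their number) and the other genes (grey circles). In quintile 5, which holds 57 of the 72 genes, the diamonds stand at 0.44, 0.13 and 0.17 and the circles at 0.31, 0.04 and 0.06; the points over 1 to 3 genes rest on those genes alone.

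The cells were labelled adipocytes, and on day 2 all 11 adipocyte markers and all 7 preadipocyte markers read were well above background on the 4 arrays. The summed scaled signal of the adipocyte markers was 416 under DMSO, 296 under bilberry, 458 under delphinidin and 501 under cyanidin, and that of the preadipocyte markers 237, 244, 215 and 185. Fabp4, the adipocyte fatty acid binding protein, made up most of the first sum under DMSO, at 265 under DMSO and 137 under bilberry. Without it the sums were 152, 159, 226 and 243 in the same order, and Lpl made up most of each, at 95.6, 96.8, 159 and 164. With bilberry 3 adipocyte markers were past 2-fold lower, Slc2a4 (-1.54), Retn (-1.08) and Adipoq (-1.07), and none was past 2-fold higher, where 6.42% of all genes were lower and 3.94% higher. The median of the 11 was 0.02, and 6 were above 0, among them Cfd (0.80), Cebpa (0.50) and Plin1 (0.39). Of all genes 62.0% were above 0, and 4 of the 11 markers lay above the all-gene median. With delphinidin and cyanidin the medians were 0.20 and 0.32, and Cfd was past 2-fold higher at 1.15 and 1.75. Past 2-fold higher were 1.23% of all genes with delphinidin and 0.626% with cyanidin. With bilberry the 7 preadipocyte markers had a median of -0.12, and 3 were above 0, beside the same 62.0% of all genes. Thy1 was past 2-fold lower (-1.20), beside the same 6.42%, while Sox9 (0.58), Col1a1 (0.42) and Dlk1 (0.31) were higher. Thy1 read -0.94 with delphinidin and -0.87 with cyanidin, where the medians of the 7 were 0.00 and -0.19. In RNA of whole cultures, fewer cells of a type and less RNA per cell cannot be told apart. Of the markers of other cells, 2 of 5 of macrophages and none of 4 of endothelium passed the background test throughout, and their summed signals were at most 0.123 and 0.0273. Their part in the result was not tested.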

How the data were processed

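Total RNA of 3T3-L1 cells was labeled with Cy3 and hybridized by the authors to Agilent Whole Mouse Genome arrays. The authors deposited the Feature Extraction output, an intensity for every spot from which that software had subtracted a fitted background surface. Per the file headers, probe positions are on mm8, and none is printed. No further scaling is in the deposited values, and a deposited table of the whole series held the same values.

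As in the study's methods, each array was divided by its 75th percentile, here over 43379 non-control spots. Control spots were dropped, as were the 701 to 875 spots of an array that the software flagged as outlying. A gene was read from its brightest probe well above background on all 4 arrays. Symbols were updated by RefSeq accession for 24375 probes. Genes past 2-fold, the methods' threshold, or 1.5-fold were counted, with no test. The rule named genes past 1.5-fold, the ends of each complex, isoforms, Sdh genes and genes whose probes disagreed. The lists of complexes, markers, regulators, assembly, coenzyme Q, carriers and mitochondrial ribosome, the genes and the alternatives were chosen with earlier results of these data known. The calculations were tested on simulated data. Python 3.11.15, pandas 2.3.3, R 4.3.3 and limma 3.58.1 were used.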

Additional observations from a re-analysis of the deposited data

How the results depend on the processing

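With 1 array per condition no replicate could be left out. No paired analysis was possible because each condition has a single array. The alternatives were normexp background correction in 2 fits, quantile normalization, spike-in or median scaling, no filter on dim probes, marked spots kept, the mean of all probes, a block of array rows left out, subunits alone, the deposited table and a threshold of 1.5-fold. Genes by current symbol and spots marked for local background alone kept were chosen after seeing the data. The median of the genes less that of all genes was 0.24 for bilberry, 0.13 for delphinidin and 0.15 for cyanidin.

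With bilberry this difference was -0.20 under normexp fitted on all spots, with a median of -0.15. That fit put the background mean of the bilberry array at -345. Without 1 spot with a local background of 11380 the fitted mean was -5.74, and without all 723 marked backgrounds it was -5.65 and the difference 0.18. It was 0.084 under quantile normalization, with a median of 0.16. Without the filter on dim probes it was 0.062, with a median of 0.40 beside 0.34 for all genes. Over all alternatives but the first fit it lay between 0.062 and 0.27. With delphinidin it lay between 0.10 and 0.23 and with cyanidin between 0.11 and 0.26, both highest without the filter on dim probes, and 0.11 with cyanidin came from quantile normalization. Spike-in scaling moved the median of all genes to -1.37 for bilberry, 0.25 for delphinidin and 0.25 for cyanidin and that of the genes to -1.14, 0.38 and 0.41, and left the differences as they were. Ndufa11 then read -0.43 with bilberry, which is above the median of all genes.

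Past 2-fold with bilberry were 49 genes under spike-in scaling, 3 under normexp on all spots, 2 without the block of rows, 0 under quantile normalization and 20 at 1.5-fold, against 1 as reported. The 49 were all lower, since Ndufa11 was the highest gene, and the 3 were the dim Atp5j2, Cox6a2 and Cox6b2, all higher, with Ndufa11 at 0.56. Past 1.5-fold with bilberry were 4 genes under quantile normalization, 10 and 15 under the normexp fits and 71 under spike-in scaling, against 20. Spike-in scaling gave 5 with delphinidin and 7 with cyanidin, against 0 and 2. With cyanidin and with delphinidin over cyanidin, the 1 gene past 2-fold, Cox6a2, was not past it under either normexp fit, and it has no value without the block of rows (0 genes). Without the filter on dim probes there were 2 genes in each, and at 1.5-fold there were 2 with cyanidin. The causes were not tested. The medians of complexes II and IV less that of all genes were below 0 with bilberry under some alternatives besides the first fit, down to -0.05 and -0.03. What limits all values is the single array per condition and, for dim probes such as that of Cox6a2, the signal over background.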
